A study of Mus musculus with 4 samples.

Results

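The genes described here encode amino acid transporters, taken as all genes whose symbol begins with Slc1a, Slc3a, Slc6a, Slc7a, Slc15a, Slc36a, Slc38a or Slc43a followed by a number, without Slc7a11. By this rule 65 of the 22180 genes named on the array were members, and both Slc6a20a and Slc6a20b were counted. The rule gathers families and not only amino acid carriers: it takes in the serotonin, taurine, creatine and GABA carriers of Slc6, the peptide carriers of Slc15 and the purine carrier Slc43a3.

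RNA came from colon of C57BL/6 mice that were 3 months old, and was hybridised to 4 arrays of the Affymetrix whole-transcript kind. The 4 groups were normal colon and colon tumour of CDX2; Dmt1+/+/ApcF/+ mice, called wild-type here, and normal colon and colon tumour of CDX2; Dmt1F/F/ApcF/+ mice, called F/F here, with 1 array each. All groups carried the CDX2 and ApcF/+ elements, the controls included. An F allele conventionally carries flanking loxP sites, and lines named for CDX2 usually express Cre recombinase from a CDX2 promoter in intestinal epithelium, although the labels do not spell this out. Dmt1 (Slc11a2) is an iron importer, and loss of Apc activates Wnt signalling. The design text gives 7 animals for the wild-type and 4 for the F/F genotype. The sources used here do not say how animals map to arrays or whether their RNA was pooled. Where 4 levels follow each other below, the order is normal colon of wild-type and of F/F mice, then tumour of wild-type and of F/F mice. In bulk tissue, fewer cells of a type and less RNA per cell cannot be told apart.

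Amino acids cross membranes through carriers that differ in substrate and driving force. In intestinal epithelium, apical carriers take up amino acids and small peptides from the lumen and basolateral exchangers pass them on to the blood. Light chains of Slc7 reach the surface only when joined to a heavy chain, Slc3a1 or Slc3a2, and dividing cells are known to rely on exchangers for leucine and glutamine.

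Values are log2 signals made with RMA, a method that corrects background and forces the arrays to 1 common distribution. A level of log2 4.67, the median of all genes, stood in for background. Of the 65 members, 34 reached it on at least 1 array and were tested, and 31 did not, with log2 levels between 2.03 and 4.67. Of the 34 tested, 28 were at or above it on all 4 arrays. The 6 others (Slc7a9, Slc7a14, Slc7a2, Slc15a2, Slc15a3 and Slc38a4) passed through their higher arrays, so a difference among them is not independent of the filter. A difference with 1 array below that level may understate the change. The targeted gene Slc11a2 had levels of 6.51, 6.13, 6.64 and 6.19, lower on both F/F arrays. The labels give its genotype and not its expression, and what part of the gene its probe set covers was not examined. The defining colon epithelium markers were present on every array, with Epcam between 10.88 and 10.99 and Cdh1 between 10.44 and 10.90. Genes that mark position along the colon set the arrays apart: the F/F normal array had Hoxd13, a posterior gene, at 3.02 against 6.86 to 8.58 on the others, and the mean log2 level of 6 distal genes was 5.72, 4.51, 6.71 and 6.69. Of 4 tested genes of proximal position 3 fell in tumour. The mean log2 level of 5 proximal genes was 6.05, 7.19, 3.62 and 3.81. The labels give no position, so sampling position and tumour cannot be told apart in any tumour difference. The same holds for sampling position and genotype in normal colon.

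In the tumours, 6 members rose and 2 fell by limma's test over both genotypes (adjusted p under 0.05 over 12060 genes), where 11.0% and 8.23% of all tested genes rose and fell. The genes that rose were Slc38a4, Slc7a8, Slc7a6, Slc38a1, Slc36a4 and Slc7a7. Slc3a1 and Slc6a14, which serve uptake at the apical membrane, fell. Of 12 markers of colon epithelium and absorptive colonocytes 5 fell and none rose. Of 6 tested enteroendocrine markers 5 fell and 1 rose. Markers of some other cells rose: 5 of 6 for fibroblasts, 4 of 4 for Paneth cells, 2 of 5 for neutrophils and 2 of 6 for macrophages. One more rose among 5 endothelial markers, as did the 1 tested marker of enteric neurons and glia. Others fell: 3 of 5 for T and NK cells, 2 of 6 for goblet cells and 1 of 2 for adipocytes. No marker of smooth muscle or of B and plasma cells was called. The part of these cell types in the carrier differences was not tested. The median fitted difference of the 34 members was 0.24 on the log2 scale, beside 0.07 for all tested genes, and 26 of the 34 had a positive fitted difference where 55.5% of all tested genes did. The other 26 members had fitted differences between -0.77 and 0.75 and adjusted p-values between 0.0657 and 0.937. Without the genotype term alone, 5 members rose and 1 fell. The shares of all tested genes given above belong to the fit with that term. With both that term and the F/F normal array left out, none of the 34 passed (11 members, 32.4%, had an unadjusted p under 0.05, as did 24.6% of all tested genes), and 49 of the 12060 genes did. The fitted differences were then -3.01 for Slc3a1, 1.96 for Slc38a4, 1.56 for Slc7a8, 0.96 for Slc7a6, -0.91 for Slc6a14, 0.87 for Slc38a1, 0.71 for Slc36a4 and 0.46 for Slc7a7. That fit leaves the wild-type normal array alone in its group, assumed to vary like the tumours. In all 8 called members the sign of the difference was the same in both genotypes. The call itself all but requires this, since the model takes the gap between the genotypes as its error.

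**Figure D1:**
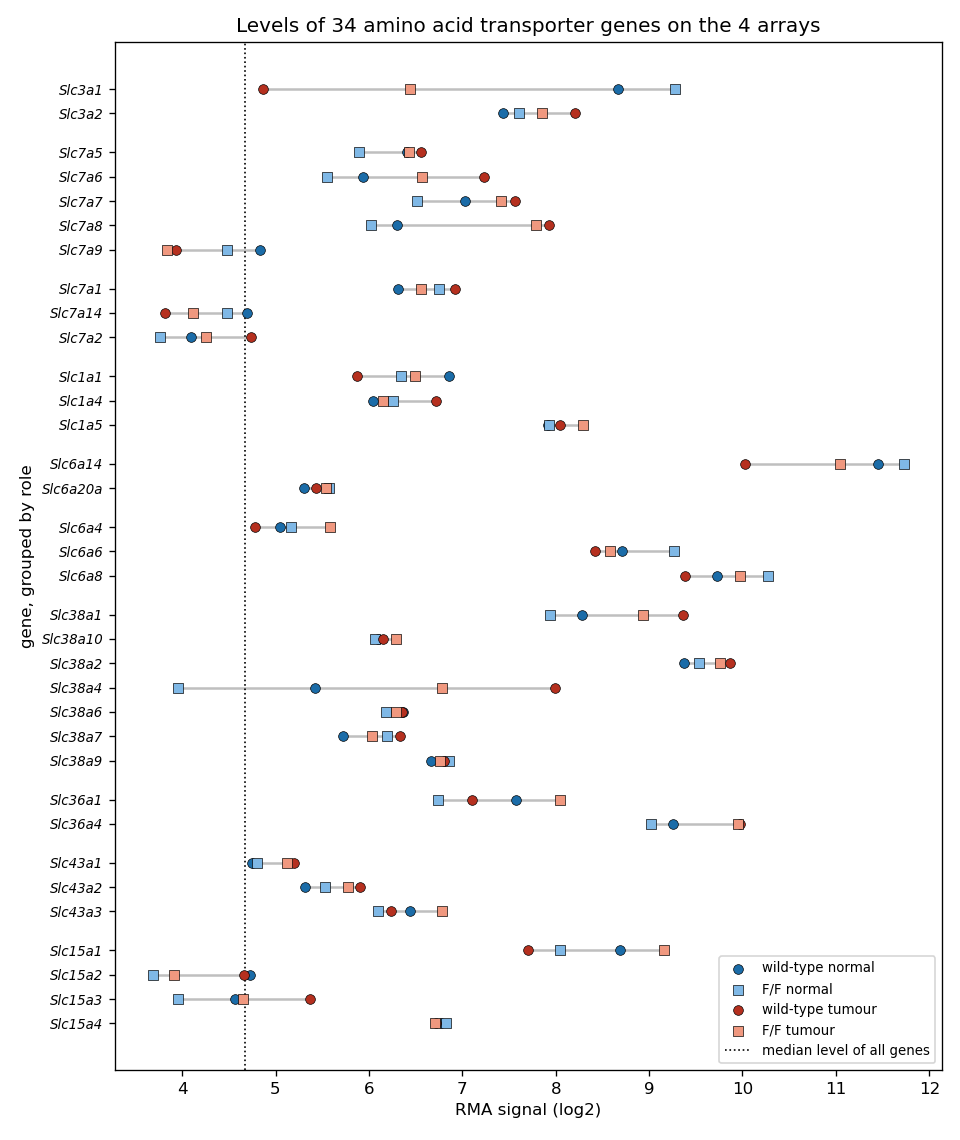
Log2 RMA signal (horizontal axis) of the 34 tested carriers (vertical axis, grouped by role), with 1 point per array and a dotted line at the median level of all genes, log2 4.67. Slc3a1 spans from 4.87 in wild-type tumour to 9.28 in F/F normal colon, and Slc38a4 from 3.96 in F/F normal colon to 7.99 in wild-type tumour.

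Among the heavy chains, Slc3a1 encodes rBAT, which with the light chain Slc7a9 forms the apical exchanger of cystine and basic amino acids. Slc3a1 stood at log2 8.67 in wild-type normal colon, 9.28 in F/F normal colon, 4.87 in wild-type tumour, with 6.44 in tumour of F/F mice. Both tumour arrays were far below both normal arrays, and the wild-type tumour was the lowest. Slc3a1 fell by 3.32 on the log2 scale over both genotypes (SE 0.26, limma adjusted p = 0.00888). Its light chain Slc7a9 had levels of 4.84, 4.48, 3.94 and 3.84 in the same order, so that only wild-type normal colon was above the background level. The difference of -0.77 (SE 0.24) did not pass (limma adjusted p = 0.0896). It passed in 1 of 7 other settings, without a trend (limma adjusted p = 0.0469), and had at most 0.0854 in the others.

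The other heavy chain, Slc3a2 (4F2hc or CD98), pairs with most light chains. Its levels were 7.44 in wild-type normal colon, 7.61 in F/F normal colon, 8.21 in wild-type tumour, with 7.86 in tumour of F/F mice. Tumour and normal arrays did not overlap, but the difference of 0.51 (SE 0.17) did not pass limma's test (adjusted p = 0.102).

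The promoter of Slc3a1 is shown because this gene had the lowest fitted difference of all members. It was read from RefSeq sequences of assembly GRCm38.p6 at chr17:85028097-85028346 on the plus strand, the 250 bases before the start of transcription, 5′ to 3′. Capitals mark a match to CAAAGTC, the core of the element bound by the nuclear receptor HNF4, a regulator of enterocyte genes.
Slc3a1: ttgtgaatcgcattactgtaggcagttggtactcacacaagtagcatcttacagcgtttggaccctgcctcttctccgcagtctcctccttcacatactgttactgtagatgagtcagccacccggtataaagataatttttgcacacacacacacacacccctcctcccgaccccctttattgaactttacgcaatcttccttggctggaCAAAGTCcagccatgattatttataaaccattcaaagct
Promoter windows were given for 47 of the 65 members, 66 windows in all since some genes have several starts. They were searched on both strands for 5 motifs. CAAAGTC was in 2 member windows (3.03%) and in 3.84% of 32851 windows of all genes. CACGTG, the E-box of Myc and Max, was in 9 (13.6%, against 6.02%), and the TCF/LEF core ATCAAAG in 5 (7.58%, against 3.21%). Neither of these motifs was in a window of a member called as risen or fallen in tumour. TGATGNAA, the amino acid response element of ATF4, was in 3 (4.55%, against 3.45%) and the CDX2 core CCATAAA in 1 (1.52%, against 2.43%). A match describes letters and not a bound site.

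Of the 9 light chains that need a heavy chain, 5 were tested. Of these 3 rose and none fell, beside 11.0% and 8.23% of all tested genes. Slc7a8 (LAT2), a basolateral exchanger of neutral amino acids, stood at 6.30 and 6.02 in wild-type and F/F normal colon and at 7.93 and 7.79 in the tumours. The 4 arrays split cleanly by tissue, and the rise was 1.70 (SE 0.12, limma adjusted p = 0.00763). Slc7a6 (y+LAT2), which exchanges basic for neutral amino acids, had 5.94 and 5.55 in normal colon and 7.24 and 6.56 in tumour of wild-type and F/F mice. It rose by 1.16 (SE 0.14, limma adjusted p = 0.0173).

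Slc7a7 (y+LAT1), the basolateral exporter of basic amino acids, had 7.03 and 6.51 in wild-type and F/F normal colon and 7.57 and 7.41 in the tumours. It rose by 0.72 (SE 0.14, limma adjusted p = 0.0396), the smallest rise among the called members, and did not pass after cyclic loess, without a trend or without the genotype term (adjusted p from 0.0509 to 0.0685, and as low as 0.0205 in other settings). Slc7a7 is also expressed by macrophages, and 6 macrophage markers had mean log2 levels of 6.17, 5.88, 6.77 and 6.65, with 2 of the 6 called as risen. Their part in the difference was not tested. The most upstream of its 5 promoter windows is shown because it was the only window of a called member with matches to 2 of the motifs. It lies on the minus strand of chr14:54417945-54418194. The capitals mark, in order, CAAAGTC in reverse complement and TGATGNAA.
Slc7a7: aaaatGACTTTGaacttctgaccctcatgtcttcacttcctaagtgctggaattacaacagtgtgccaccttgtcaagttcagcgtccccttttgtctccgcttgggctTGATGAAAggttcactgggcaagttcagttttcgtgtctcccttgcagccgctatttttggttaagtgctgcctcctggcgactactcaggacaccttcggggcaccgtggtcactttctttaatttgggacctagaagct
Slc7a5 (LAT1), the leucine exchanger best known from tumours, did not pass. Its levels were 6.41 and 5.90 in wild-type and F/F normal colon and 6.56 and 6.43 in the tumours, a narrow span in which wild-type normal colon nearly equalled F/F tumour. The fitted difference was 0.34 (SE 0.15, limma adjusted p = 0.181). The remaining light chains, Slc7a10, Slc7a12, Slc7a13 and Slc7a15, were below the background level on every array.

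**Figure D2:**
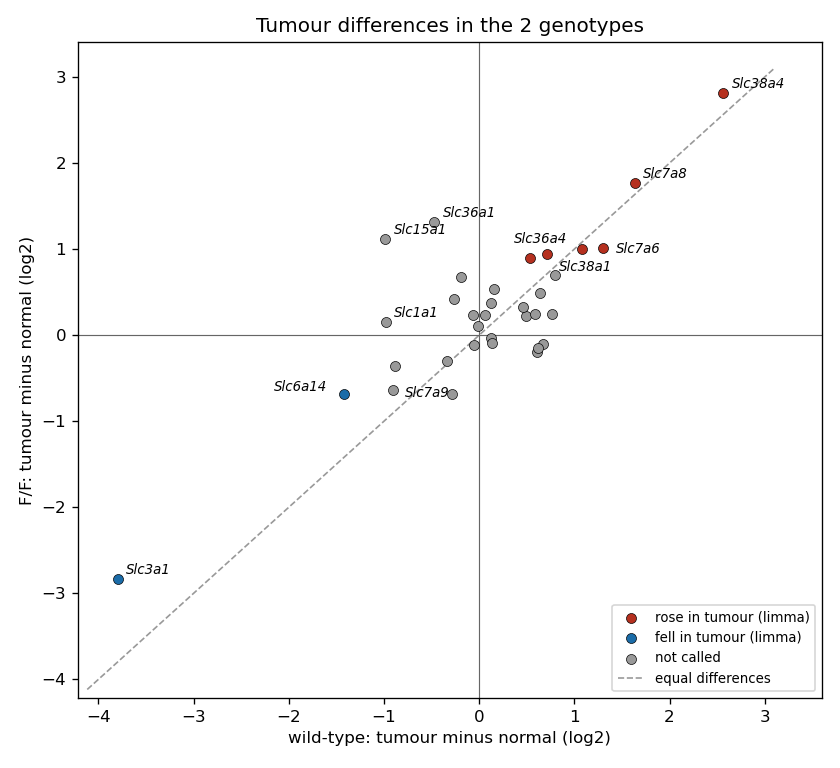
Tumour minus normal difference in log2 signal in wild-type mice (horizontal axis) and F/F mice (vertical axis) for the 34 tested carriers, coloured by limma's call over both genotypes, with a dashed line of equal differences. Slc38a4 (2.57 and 2.82) and Slc3a1 (-3.80 and -2.83) lie at the ends, and Slc15a1 and Slc36a1 lie at upper left, negative in wild-type and positive in F/F mice.

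None of the 3 tested cationic carriers passed. Slc7a1 (CAT1), the widely expressed importer of arginine and lysine, had 6.31 and 6.92 in wild-type normal colon and tumour, and 6.75 and 6.55 in F/F normal colon and tumour. The wild-type pair differed by 0.61 and the F/F pair by -0.20, giving a fitted difference of 0.21 (SE 0.23, limma adjusted p = 0.541). Slc7a2 and Slc7a14 lay around the background level, and Slc7a3 and Slc7a4 were below it on all arrays.

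Of the 11 Slc38 carriers, 7 were tested, 2 rose and none fell, beside 11.0% and 8.23% of all tested genes. Slc38a4 (SNAT4), a sodium-coupled carrier of neutral amino acids, had the highest fitted difference of all members. Its levels were 5.42 in wild-type normal colon, 3.96 in F/F normal colon, 7.99 in wild-type tumour, with 6.78 in tumour of F/F mice. Both tumours were above both normal arrays and, in each tissue, F/F was below wild-type. It rose by 2.69 (SE 0.14, limma adjusted p = 0.00443). The F/F normal array was below the level that stood in for background, so the F/F difference of 2.82 may understate the change.

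Slc38a1 (SNAT1), a glutamine carrier, had 8.28 and 7.93 in wild-type and F/F normal colon and 9.37 and 8.93 in the tumours. It rose by 1.04 (SE 0.11, limma adjusted p = 0.014). Slc38a2 (SNAT2), which cells are known to raise when amino acids are short, had 9.38 and 9.53 in normal colon and 9.87 and 9.76 in tumour of wild-type and F/F mice. The tissues did not overlap, yet the difference of 0.36 (SE 0.12) did not pass (limma adjusted p = 0.103). The lysosomal arginine sensor Slc38a9 differed by 0.02 (SE 0.13, limma adjusted p = 0.923). The lysosomal glutamine carrier Slc38a7 had a fitted difference of 0.23 (SE 0.22, limma adjusted p = 0.483). Its wild-type pair differed by 0.62 and its F/F pair by -0.15. Slc38a3 and Slc38a5, glutamine carriers of liver and kidney among other tissues, were below background throughout, at 3.64 to 3.80 and 3.17 to 3.41.

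In the Slc1 family 3 of 7 members were tested and none passed. Slc1a5 (ASCT2), an exchanger of glutamine, had 7.92 and 7.93 in wild-type and F/F normal colon and 8.05 and 8.30 in the tumours, a fitted difference of 0.25 (SE 0.12, limma adjusted p = 0.217). Slc1a4 (ASCT1), its relative for small neutral amino acids, had 6.05 and 6.71 in wild-type normal colon and tumour and 6.26 and 6.15 in the F/F pair. Slc1a1 (EAAT3), the apical glutamate carrier, was lower in tumour within the wild-type pair, 5.87 against 6.85, while the F/F pair had 6.34 and 6.49. The fitted difference was -0.42 (SE 0.30, limma adjusted p = 0.357). The carriers known from brain and retina, Slc1a2, Slc1a3, Slc1a6 and Slc1a7, were below background.

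Slc6 was the family least present: 5 of 19 members were tested. Slc6a14 (ATB0,+), an apical importer of neutral and basic amino acids, had 11.45 and 11.73 in wild-type and F/F normal colon and 10.03 and 11.05 in the tumours. The tissues did not overlap, and the wild-type tumour stood lowest. It fell by 1.05 (SE 0.20, limma adjusted p = 0.0344). The call was lost without a trend (adjusted p = 0.0579) and without the genotype term (adjusted p = 0.0871), and ranged from 0.00378 to 0.0871 over 8 other settings. Slc6a19 (B0AT1), the main neutral amino acid importer of small intestine, was below background on all arrays, between 3.31 and 3.37, and its partner Cltrn (collectrin) between 2.27 and 2.53. Slc6a20a, an apical proline carrier, had 5.31 to 5.57, and its tissues overlapped.

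The Slc6 carriers of other substrates held 3 tested members. The creatine carrier Slc6a8 had 9.72 and 9.39 in wild-type normal colon and tumour and 10.27 and 9.97 in the F/F pair. F/F was above wild-type in each tissue, and the tumour difference of -0.32 (SE 0.10) did not pass (limma adjusted p = 0.0929). The taurine carrier Slc6a6 had 8.71 and 8.42 in the wild-type pair and 9.26 and 8.58 in the F/F pair, a difference of -0.49 (SE 0.14, limma adjusted p = 0.0799). It passed with each array centred on its median (adjusted p = 0.0402) and in none of the 7 other settings, up to 0.158. The serotonin carrier Slc6a4 ranged from 4.78 in wild-type tumour to 5.59 in F/F tumour, with a fitted difference of 0.08 (SE 0.23, limma adjusted p = 0.824) that turned negative after quantile normalization (-0.06) and cyclic loess (-0.02).

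Of the proton-coupled Slc36 carriers, Slc36a4, which carries proline and tryptophan, rose by 0.83 (SE 0.11, limma adjusted p = 0.0212). Its levels were 9.26 and 9.02 in wild-type and F/F normal colon and 9.97 and 9.96 in the tumours. The gene has a further probe set of lower signal that went the other way, at 5.52, 5.98, 5.48 and 5.40. With the mean of both probe sets the difference was 0.26 and did not pass (adjusted p = 0.191, the highest of 8 other settings, the lowest being 0.00558).

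The 3 Slc43 members had positive fitted differences that did not pass. The leucine uniporters Slc43a1 (LAT3) and Slc43a2 (LAT4) had 4.75 and 4.80, and 5.31 and 5.53, in wild-type and F/F normal colon. In the tumours they had 5.20 and 5.12, and 5.90 and 5.77. Both stood higher on each tumour array than on each normal array, by 0.39 (SE 0.17, limma adjusted p = 0.179) and 0.42 (SE 0.16, limma adjusted p = 0.137). The purine carrier Slc43a3 had 6.44 and 6.10 in wild-type and F/F normal colon and 6.24 and 6.78 in the tumours. Its tumour differences had opposite signs, -0.20 in wild-type and 0.68 in F/F mice, and the fitted difference was 0.24 (SE 0.24).

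Counted within each genotype at 2-fold or more (a log2 difference of at least 1), 4 of the 34 members were higher and 2 lower in wild-type tumour, where 6.56% and 5.31% of all tested genes were. Slc15a1 (-0.99) and Slc1a1 (-0.98) lay just short of that limit, and 4 members were lower under median centring, quantile normalization or cyclic loess. In F/F mice 5 were higher and 1 was lower, beside 5.98% and 3.81%. Set against the wild-type normal array, the F/F tumour had 2 higher and 2 lower, beside 4.00% and 2.10%. The member medians were 0.13 for wild-type and 0.24 for F/F mice, beside 0.08 and 0.04 for all tested genes. With 1 array per group these differences have no replicate check.

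No member passed limma's test for F/F against wild-type over both tissues, and neither did any of the 12060 genes (0.00% called in either direction). At an unadjusted p under 0.05 there were 8 of the 34 members and 991 genes, 8.22% of those tested. Normal and tumour RNA of a genotype may share animals, in which case this term misses the variation from animal to animal. Slc38a4 was lower in F/F by 1.46 in normal colon and by 1.21 in tumour on the log2 scale, with a fitted difference of -1.34 (SE 0.14, limma adjusted p = 0.506). Slc15a2 (PepT2), a peptide carrier near background, was also lower on both F/F arrays, at 3.68 and 3.91 against 4.73 and 4.66 in wild-type normal colon and tumour. The creatine carrier Slc6a8 was higher on both F/F arrays, by 0.55 and 0.59, with a fitted difference of 0.57 (SE 0.10, limma adjusted p = 0.523).

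In normal colon, none of the 34 members was higher and 2 were lower in F/F by 2-fold or more, Slc38a4 and Slc15a2, beside 0.713% and 0.904% of all tested genes. In tumour, 3 were higher and 1 was lower, beside 1.70% and 0.506%. The higher ones were Slc3a1 by 1.58, Slc15a1 by 1.46 and Slc6a14 by 1.02, and the lower one was Slc38a4. Epithelial and absorptive colonocyte markers were higher in F/F tumour as well: the median difference of 12 such markers was 0.14 in normal colon and 0.68 in tumour, and their mean log2 levels were 10.11, 10.31, 8.89 and 9.81. Their part in the carrier differences was not tested. In normal colon, the median F/F minus wild-type difference was -0.91 for 6 distal position genes and 1.57 for 4 tested proximal ones. Sampling position and genotype therefore cannot be told apart in the normal colon differences.

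**Figure D3:**
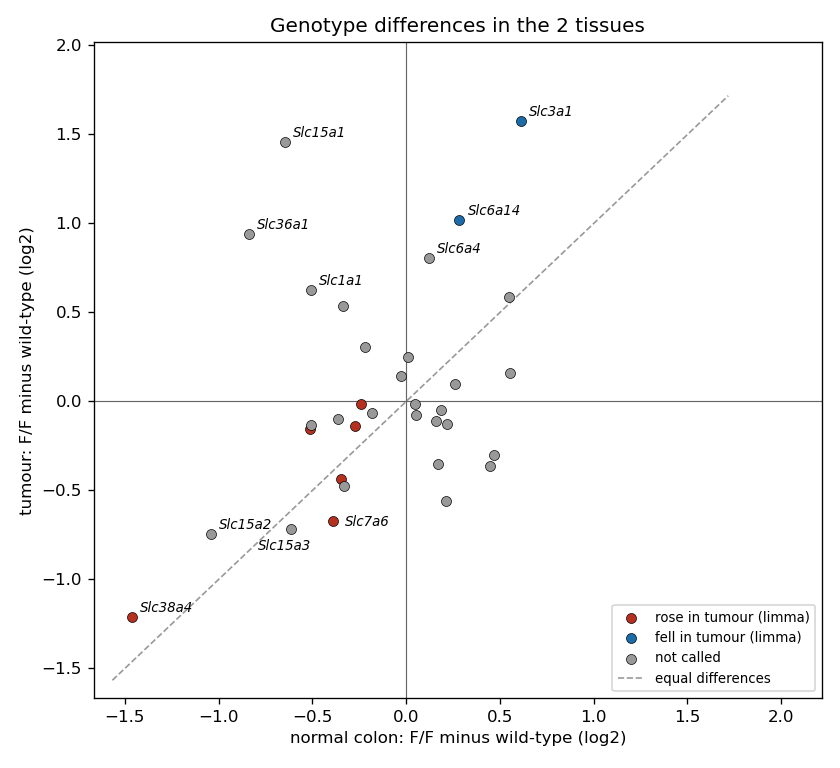
F/F minus wild-type difference in log2 signal in normal colon (horizontal axis) and in tumour (vertical axis) for the 34 tested carriers, coloured by limma's tumour call, with a dashed line of equal differences. Slc38a4 was lower in F/F in both tissues (-1.46 and -1.21), whereas Slc15a1, Slc36a1 and Slc1a1 were lower in F/F normal colon and higher in F/F tumour.

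The apical carriers Slc15a1 and Slc36a1 differed by tissue in opposite directions in the genotypes. Slc15a1 (PepT1), the importer of di- and tripeptides, had 8.69 in wild-type normal colon and 7.71 in wild-type tumour, but 8.04 in F/F normal colon and 9.16 in F/F tumour. The wild-type tumour was thus the lowest array and the F/F tumour the highest. Slc36a1 (PAT1), a carrier of small amino acids of brush border and lysosome, had 7.57 and 7.10 in the wild-type pair and 6.74 and 8.05 in the F/F pair. The tumour difference in F/F exceeded that in wild-type by 2.10 for Slc15a1, 1.78 for Slc36a1 and 1.14 for Slc1a1, the 3 members at 1 or more in size, where 4.21% of all tested genes were. For these same 3 genes the genotype difference had opposite signs in the tissues, each at 0.5 or more, where 1.13% of all tested genes had; for Slc15a1 the tumour differences did (0.547%), and also for Slc36a1 under median centring, quantile normalization or cyclic loess. The additive model takes this term as its error, so it has no test here. It also gave both genes wide errors for the tissue difference, 0.07 (SE 0.51, limma adjusted p = 0.937) for Slc15a1 and 0.42 (SE 0.44, limma adjusted p = 0.519) for Slc36a1. The 4 markers of B and plasma cells had mean log2 levels of 6.69, 5.86, 6.26 and 7.46, lowest in F/F normal colon and highest in F/F tumour. The 6 smooth muscle markers had 10.16, 9.44, 8.24 and 8.94, and their median F/F minus wild-type value was -0.58 for normal colon but 0.67 for tumour. The part of these cells in the pattern was not tested. The F/F tumour difference and the genotype difference in normal colon both use the F/F normal array, which stood apart in position genes. Sampling position and genotype cannot be told apart in these differences. The F/F minus wild-type differences in tumour do not use that array. They were 1.46 for Slc15a1, 0.94 for Slc36a1 and 0.63 for Slc1a1, and the labels give no position for the tumours either.

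The promoter window of Slc36a1 is shown as that of a member whose tumour differences opposed each other. It lies on the plus strand at chr11:55204090-55204339, and the capitals mark an E-box, CACGTG, close to the start. The Slc15a1 window held none of the 5 motifs.
Slc36a1: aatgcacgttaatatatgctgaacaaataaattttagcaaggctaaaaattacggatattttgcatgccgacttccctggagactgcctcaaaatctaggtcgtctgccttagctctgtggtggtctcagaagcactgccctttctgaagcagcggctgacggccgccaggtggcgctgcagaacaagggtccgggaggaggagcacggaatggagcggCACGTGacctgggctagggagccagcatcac
The other Slc15 members did not share this pattern. Slc15a3, a lysosomal histidine and peptide carrier of immune cells, had 4.57 and 3.95 in wild-type and F/F normal colon and 5.37 and 4.65 in the tumours, a difference of 0.75 (SE 0.20, limma adjusted p = 0.0657). Slc15a4, of the same kind, lay between 6.71 and 6.82 on all arrays.

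**Figure D4:**
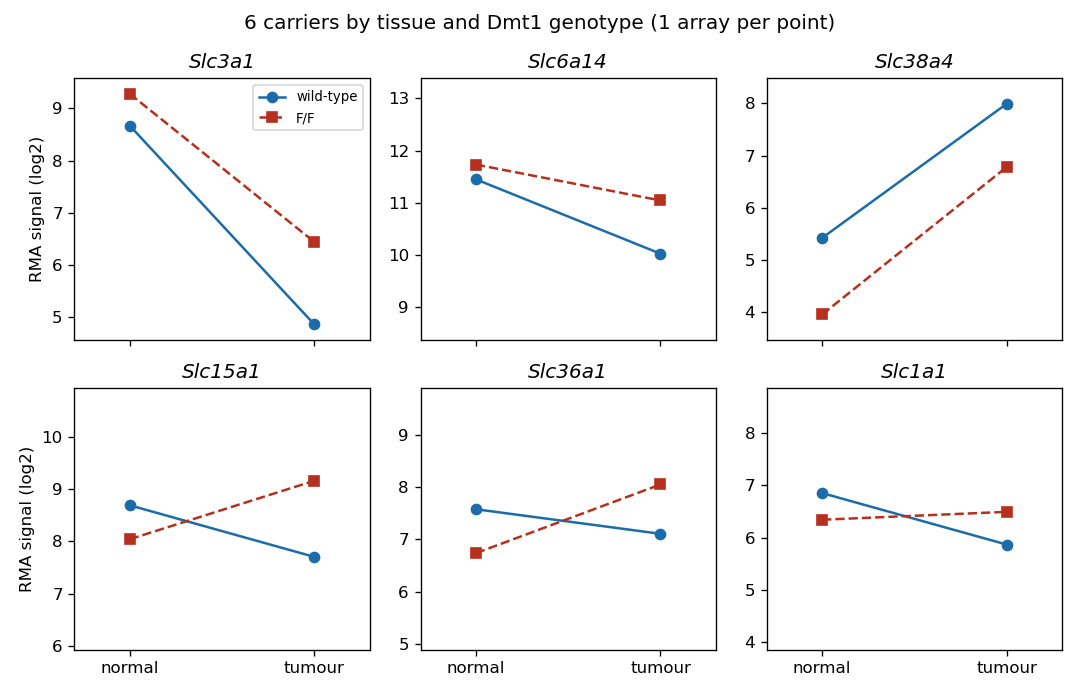
Log2 RMA signal (vertical axes, each spanning 5 log2 units) in normal colon and tumour for 6 carriers, with wild-type as a solid line and F/F as a dashed line and 1 array per point. The lines run nearly parallel for Slc38a4. For Slc3a1 (-3.80 and -2.83) and Slc6a14 (-1.42 and -0.69) both fall, the wild-type line further than the F/F line. They cross for Slc15a1, Slc36a1 and Slc1a1.

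Genes that use or sense the same amino acids were described from 9 lists. Their counts stand beside 11.0% of all tested genes that rose and 8.23% that fell. Amino acid carriers of other families held 9 tested genes, of which 1 rose and 1 fell. The gene that rose was Slc16a10 (TAT1), a basolateral carrier of aromatic amino acids, by 1.73 (SE 0.14, limma adjusted p = 0.00917), from 4.89 and 4.65 in wild-type and F/F normal colon to 6.57 and 6.42 in the tumours. The gene that fell was Slc25a13, a mitochondrial aspartate and glutamate carrier, by 1.02. Of 10 tested brush-border peptidases and transporter partners, 5 fell and none rose, with Dpep1 at -2.88 and the meprin subunit Mep1b at -2.19.

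In the response to amino acid shortage, 2 of 20 tested genes rose and none fell: Ddit4, an inhibitor of mTORC1, by 1.21 and the serine hydroxymethyltransferase Shmt2 by 0.94. The regulator Atf4 itself differed by -0.19 (limma adjusted p = 0.287) and asparagine synthetase, Asns, by -0.11 (limma adjusted p = 0.553). Of 27 tested genes of amino acid sensing by mTORC1, 1 fell, the leucine sensor relative Sesn1, by 0.74, and none rose. Cytosolic aminoacyl-tRNA synthetases and their cofactors had 3 of 20 genes that rose and none that fell, with Eef1e1 at 0.86 and the isoleucine enzyme Iars at 0.77.

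In glutamine and glutamate metabolism 2 of 14 genes rose and 2 fell, beside 11.0% and 8.23% of all tested genes. Ppat, which spends glutamine on purine synthesis, rose by 1.19 and glutamine synthetase, Glul, by 0.56. Alanine transaminase, Gpt, fell by 2.16 and Gfpt1, which makes glucosamine phosphate, by 0.72. In arginine and polyamine metabolism 1 of 17 rose, spermidine synthase Srm by 0.76, and 3 fell, led by the urea cycle enzyme Otc at -2.84 and the creatine kinase Ckb at -0.98. In breakdown of branched-chain amino acids none of 17 rose and 3 fell, with Pcca at -0.68 and Dld at -0.61. In tryptophan and serotonin metabolism none of 6 rose and 3 fell, with Tph1, the serotonin-making enzyme of enteroendocrine cells, at -1.54 and Maoa at -1.47. None of these lists was called for genotype in any gene, and neither was any of the 12060 tested genes.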

How the data were processed

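The deposited values are log2 signals, 1 per probe set (41345), made by the authors; the submitters' processing notes name RMA and the oligo package. RMA removes differences in total signal between arrays, and it yields neither a detection call nor an error per value. Probe sets with exactly 1 gene in the platform annotation (23521) were used, with symbols updated by gene ID through RefSeq GRCm38.p6 for 23328. The probe set with the highest mean stood for a gene. Genes were kept (12060) if their highest value reached log2 4.67.

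limma 3.58.1 in R 4.3.3 fitted tissue and genotype as additive terms over the 4 arrays (eBayes with trend, 1 residual degree of freedom, Benjamini-Hochberg at 0.05). The fit was tested on simulated data. Differences between 2 arrays have no test. The number of arrays limits precision.

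Named members were those called with a fitted difference of at least 1, those 2-fold apart between genotypes, and 22 well-known carriers. Further carriers were named after their values were seen. Members and lists were chosen with earlier results of these data known. Alternatives changed normalization, the probe set rule, the filter, the trend, the genotype term and the fold. Slc6a9 shares its probe set with another gene and was not used here. No sample columns were left out.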

Additional observations from a re-analysis of the deposited data

Results flagged for a closer look

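For 3 carriers the F/F minus wild-type difference had opposite signs in the tissues, each at least 0.5 on the log2 scale, as in 136 of 12060 genes (1.13%). The excess of the F/F over the wild-type tumour difference was 2.10 for the peptide carrier Slc15a1, 1.78 for the proton-coupled carrier Slc36a1 and 1.14 for the glutamate carrier Slc1a1. These differences between genotypes were not tested, since each group holds 1 array. In normal colon they cannot be told apart from sampling position. For Slc15a1 the tumour differences themselves also opposed each other at that size (-0.99 in wild-type and 1.12 in F/F), as in 66 genes (0.547%). Under median centring, quantile normalization and cyclic loess these genotype differences stayed at 0.5 or more in both tissues for Slc15a1 and Slc36a1. For Slc1a1 the signs held, but its difference in normal colon was -0.47 under median centring and -0.49 under quantile normalization, short of that size.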

How the results depend on the processing

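Over 8 other settings, 174 of the values for 24 named carriers kept their direction and side of the threshold, 6 lost the call, 2 gained it and 5 changed sign. Slc3a1, Slc38a4, Slc38a1, Slc7a6 and Slc7a8 passed in all 8. The sign changes were those of carriers near 0: Slc6a20a under median centring (-0.0078), quantile normalization (-0.10) and cyclic loess (-0.058), and Slc6a4 under quantile normalization (-0.056) and cyclic loess (-0.017). Without the genotype term 1 member fell in tumour, not 2. In wild-type mice 4 members were 2-fold lower in tumour under median centring, quantile normalization or cyclic loess, not 2. With the stricter filter 1 member was 2-fold lower in F/F normal colon. At 1.5-fold the counts higher and lower were 12 and 6 for tumours of wild-type mice (17.0% and 12.8% of all tested genes), 10 and 4 for those of F/F mice (14.6% and 10.5%), 1 and 5 in F/F against wild-type normal colon (3.72% and 4.00%), and 7 and 4 in F/F against wild-type tumour (5.36% and 2.88%). 2 alternatives were chosen after seeing the data, because the F/F normal array stood apart in position genes. Set against the wild-type normal array, 2 members were higher and 2 lower in F/F tumour. Without both the F/F normal array and the genotype term 0 members rose and 0 fell, while Slc15a1 (-0.26) and Slc15a2 (-0.44) changed sign. The 8 called members had the same sign there as with all arrays. No paired analysis was possible because the labels give no replicate numbers, other than through the genotype term, by which the model already sets tumour against normal within each genotype. Where no cause is given, the cause was not tested.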
